A study of Mus musculus with 32 samples.

Results

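Type 2 immunity and eosinophils were followed in the colon through 9 mouse genes, *Il13*, *Il5*, *Ccl11*, *Ccl24*, *Retnla*, *Chil3*, *Chil4*, *Siglecf* and *Prg2*. They were taken by symbol from a table of 55291 gene rows, and each symbol had 1 row. RNA-Seq was performed on *Dnase1l3*-KO and *Dnase1l3* WT mice of the C57BL/6 background, put through the AOM/DSS model, in which the carcinogen azoxymethane is followed by cycles of the colitis agent dextran sulfate sodium and tumors form in the inflamed colon. Whole colon came from untreated mice (D0), after 1 cycle (D19) and after 3 cycles (D80), with 4 KO and 4 WT mice at each stage, and tumors after 3 cycles came from 3 KO and 5 WT mice, which gave 32 libraries. Mice of the AOM/DSS model were 3 months old when azoxymethane was given. The KO, labelled DNase MUT, is a constitutive deletion carried by every cell, and 3 KO and 3 WT mice gave both a D80 colon and a tumor. Levels are given as counts per 1000000 counts of the library (CPM), after the total of each library was scaled by its TMM factor. *Dnase1l3*, the targeted gene, still had reads in every KO library, with 0.675 to 11.8 CPM in KO libraries and 1.79 to 10.4 CPM in WT libraries. Only at D19 did the genotypes not overlap (0.675 to 6.79 CPM in KO mice, 7.29 to 8.84 CPM in WT mice). A total per gene does not tell whether these reads fall inside the deleted part.

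Type 2 immunity is the arm of the immune response used against worms and in allergy. Epithelial alarmins such as IL-33 act on innate lymphoid cells and T cells, which release IL-13 and IL-5; IL-13 acts through STAT6 on epithelium, fibroblasts and macrophages, and IL-5 keeps eosinophils alive. Tissue cells answer with the eotaxins CCL11 and CCL24, which draw eosinophils through their receptor CCR3, and macrophages answer with RELMα, encoded by *Retnla*, and with the chitinase-like proteins Ym1 and Ym2, encoded by *Chil3* and *Chil4*. *Chil3* is also made by neutrophils and their precursors. Siglec-F is a surface receptor of mouse eosinophils, and *Prg2* encodes the major basic protein of their granules.

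In GRCm38 the genes lie on 6 chromosomes. *Chil3* (chr3:106147554-106167564) and *Chil4* (chr3:106201490-106219507) are neighbors on the minus strand, 33.9 kb apart, and the cytokine genes *Il13* (chr11:53631324-53634702) and *Il5* (chr11:53720794-53725106) stand 86.1 kb apart. *Ccl11* (chr11:82057823-82062955) is far from them on the same chromosome, and *Retnla* (chr16:48842551-48844461), *Ccl24* (chr5:135569937-135573049), *Siglecf* (chr7:43351341-43359531) and *Prg2* (chr2:84980461-84983632) stand alone. The sequences just before *Retnla*, *Chil3* and *Chil4* are shown because the largest contrasts of the data fall on these 3 genes and because *Chil3* and *Chil4* are recent copies of each other. They come from RefSeq's GRCm38.p6 promoter table, cut at the first base of the gene, and run 5′ to 3′ on the gene's strand. Capitals mark a match to a STAT-type motif, TTCNNNNGAA (the spacing preferred by STAT6) in *Retnla* and TTCNNNGAA in the other two.

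Retnla, chr16:48842359-48842550, plus strand: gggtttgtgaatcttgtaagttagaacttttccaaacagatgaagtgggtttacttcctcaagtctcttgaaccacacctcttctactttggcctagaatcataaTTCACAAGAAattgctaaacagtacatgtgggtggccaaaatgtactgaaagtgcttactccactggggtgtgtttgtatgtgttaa
Chil3, chr3:106167565-106167814, minus strand: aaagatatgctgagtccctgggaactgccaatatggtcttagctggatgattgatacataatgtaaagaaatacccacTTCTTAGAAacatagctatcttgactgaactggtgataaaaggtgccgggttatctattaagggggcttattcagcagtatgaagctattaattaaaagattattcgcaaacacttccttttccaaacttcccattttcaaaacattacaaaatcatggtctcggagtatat
Chil4, chr3:106219508-106219729, minus strand: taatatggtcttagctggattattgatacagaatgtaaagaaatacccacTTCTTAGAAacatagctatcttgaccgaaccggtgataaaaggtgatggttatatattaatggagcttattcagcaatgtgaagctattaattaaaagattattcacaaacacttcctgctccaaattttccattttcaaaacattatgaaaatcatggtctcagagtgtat

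The *Chil3* and *Chil4* promoters were 90.1% identical (201 of 223 aligned positions, 2 of them gaps), and both carried the same 9-letter match. On both strands, TTCNNNNGAA was found in 6.95% of all 32851 mouse promoters and TTCNNNGAA in 8.3%, so a match is a common event and describes the letters only. The windows of *Il13*, *Il5* and *Siglecf* held neither motif, and none of the 6 members with a promoter entry held GATAAG, the site of GATA factors, which 7.44% of promoters held. Within the transcripts, 13% of the distinct 75-base stretches of *Chil3* and 5.27% of those of *Chil4* also occurred in the other gene or in the predicted gene *Gm6522*, so a small part of the reads of either could have been lost or assigned to its copy. *Il5* shares exon bases with *Gm12214* on the opposite strand, and because no source used here says whether strand was used in counting, reads of the pair could not be told apart. The other 6 members shared no such stretch.

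Libraries held 18951121 to 47623288 counts, with a median of 34333250. A high share of mitochondrial counts set 3 libraries apart from their groups: 10.6% in KO mouse 811 at D19 (5.09% to 7.04% in the others), 15.1% in WT mouse 581 at D80 (5.43% to 5.83%) and 8.02% in the tumor of KO mouse 544 (3.33% and 3.35%). WT mouse 581 was also the highest WT D80 library for *Retnla*, *Ccl11* and *Ccl24*. Where leaving out 1 of these 3 libraries changed a member's call or moved a member's called value by over 1.5 times, the value without it is given as well. In sample titles the mouse number follows another number, unexplained in the labels; at D19 that number was 115 or 116 for all 4 KO mice and for WT mice 805 and 812, but 97 for WT mice 685 and 686. Because the tissue was not sorted, more cells of a type and more RNA per cell cannot be told apart.

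**Figure D1:**
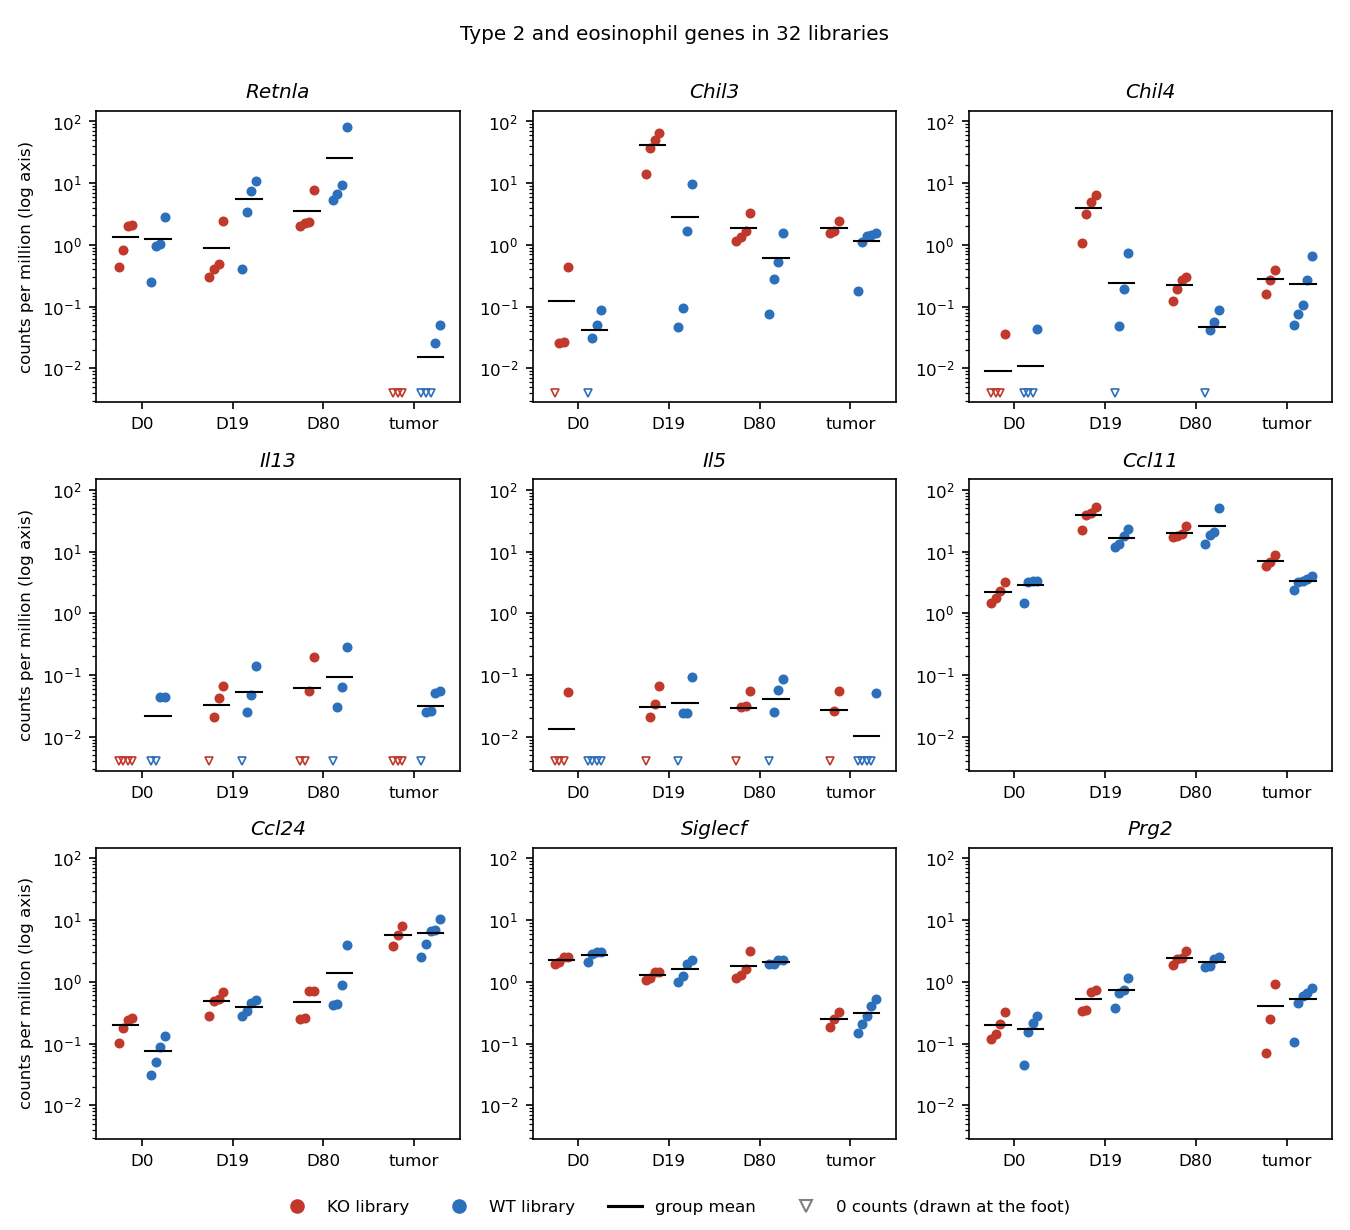
Each panel shows 1 gene, with CPM on a log axis and 1 point per library at D0, D19, D80 and in tumors, KO (red) beside WT (blue); bars are group means and open triangles at the foot are libraries with 0 counts. *Chil3* and *Chil4* stand highest in KO colons at D19 (13.9 to 65.9 CPM for *Chil3*), *Retnla* in WT colons at D80 (5.34 to 81.1 CPM), and *Retnla* has 3 counts in all 8 tumors together.

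The 2 cytokines that head the pathway were barely detected. *Il13*, which drives goblet cell mucus and alternative macrophage activation, had 0 to 9 counts in a library, and *Il5*, the eosinophil growth factor, had 0 to 4. Summed over groups, *Il13* had 5 counts in KO and 6 in WT colons at D19, 11 in KO and 9 in WT colons at D80, and 0 in KO and 6 in WT tumors. Neither gene passed the filter on low counts in any comparison, so no difference in them was detectable at this depth. A group's total of 0, as in KO tumors for *Il13*, allows up to 3 counts, or 0.0294 CPM.

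The eotaxin *Ccl11* was the most abundant member per kilobase of exon in every group of inflamed colon except WT D80, where *Retnla* averaged 42.7 and *Ccl11* 23.8 CPM per kb. That order rested on mouse 581, since *Retnla* averaged 11.8 and *Ccl11* 16.3 CPM per kb in the other 3 WT D80 colons. Its own series ran through 1.49 to 3.16 CPM in KO and 1.46 to 3.41 CPM in WT colons at D0, and 17.1 to 25.6 CPM in KO and 13.1 to 50.3 CPM in WT colons at D80. At D19 it had 52.5, 22.3, 41.7 and 39.1 CPM in KO colons, against 13.2, 11.8, 23.6 and 18.2 CPM in WT colons. Here 3 KO libraries lay above every WT library and the fourth just under the highest WT value. Tumors had 6.79, 5.81 and 8.89 CPM in KO mice, against 3.63, 3.29, 4.06, 3.22 and 2.42 CPM in WT mice, and did not overlap.

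*Ccl24*, the second eotaxin, took another course and was highest in tumors. It had 0.104 to 0.263 CPM in KO and 0.0312 to 0.134 CPM in WT colons at D0, and 0.279 to 0.675 CPM in KO and 0.279 to 0.512 CPM in WT colons at D19. At D80 it had 0.714, 0.257, 0.697 and 0.246 CPM in KO colons, against 3.89, 0.424, 0.896 and 0.430 CPM in WT colons, where mouse 581 stood alone. Tumors had 3.76, 5.68 and 7.97 CPM in KO mice, against 6.85, 10.5, 6.54, 4.08 and 2.55 CPM in WT mice, so that the genotypes overlapped.

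*Retnla* reached the highest level of any member in a single library, 81.1 CPM in WT D80 mouse 581, and was at 0 in others. That library had a TMM factor of 0.593, with 1440 *Retnla* counts in 29955789. Before TMM scaling the highest level was that of *Chil3* in KO D19 mouse 803, with 2357 counts in 41095055. *Retnla* had 2.07, 1.99, 0.829 and 0.438 CPM in KO colons at D0, against 0.961, 0.252, 1.03 and 2.78 CPM in WT colons. At D19 it had 2.43, 0.412, 0.300 and 0.483 CPM in KO colons, against 10.8, 7.44, 0.405 and 3.47 CPM in WT colons. The 2.43 CPM belong to KO mouse 811, and the low WT value of 0.405 CPM to mouse 805, so the groups overlapped at both ends. At D80 it had 2.36, 7.70, 2.25 and 2.06 CPM in KO colons, against 81.1, 9.27, 6.57 and 5.34 CPM in WT colons, where mouse 581 alone held 1440 of the group's 2308 counts. Only KO mouse 535, with 7.70 CPM, reached into the WT range.

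*Chil3*, or Ym1, went the other way between genotypes. At D0 it had 0 to 0.434 CPM in KO and 0 to 0.0873 CPM in WT colons. At D19 it had 65.9, 13.9, 50.6 and 36.6 CPM in KO colons, against 0.0465, 0.0956, 9.65 and 1.65 CPM in WT colons. Every KO library lay above every WT library, and the WT libraries themselves spanned the distance between 1 count (mouse 685) and 381 counts (mouse 805). At D80 it had 3.32, 1.69, 1.36 and 1.17 CPM in KO colons, against 1.58, 0.276, 0.538 and 0.0759 CPM in WT colons.

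*Chil4*, or Ym2, followed *Chil3* at a lower level. At D19 it had 6.48, 1.09, 4.98 and 3.12 CPM in KO colons, against 0, 0.0478, 0.734 and 0.191 CPM in WT colons, again with no overlap. At D0 it had 1 count in 1 KO library and 1 count in 1 WT library. Its share of the summed *Chil3* and *Chil4* counts at D19 was 8.95%, 7.27%, 8.96% and 7.85% in the 4 KO colons, and 7.07% (95% exact binomial interval, 4.79% to 10%) and 10.4% (4.59% to 19.4%) in WT mice 805 and 812, the only WT colons of that stage with over 10 such counts. The 2 genes were thus present in nearly the same proportion in these D19 colons, whose *Chil3* level differed widely. At other stages the share varied more. Among tumors with over 10 such counts it ran from 3.33% (0.406% to 11.5%) in WT mouse 534 to 29.6% (20.0% to 40.8%) in WT mouse 542. It was 16.1% (7.62% to 28.3%) in the tumor of WT mouse 541 and 15.1% (8.48% to 24.0%) in KO D80 mouse 535. These intervals, like all count intervals here, cover counting error only.

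**Figure D2:**
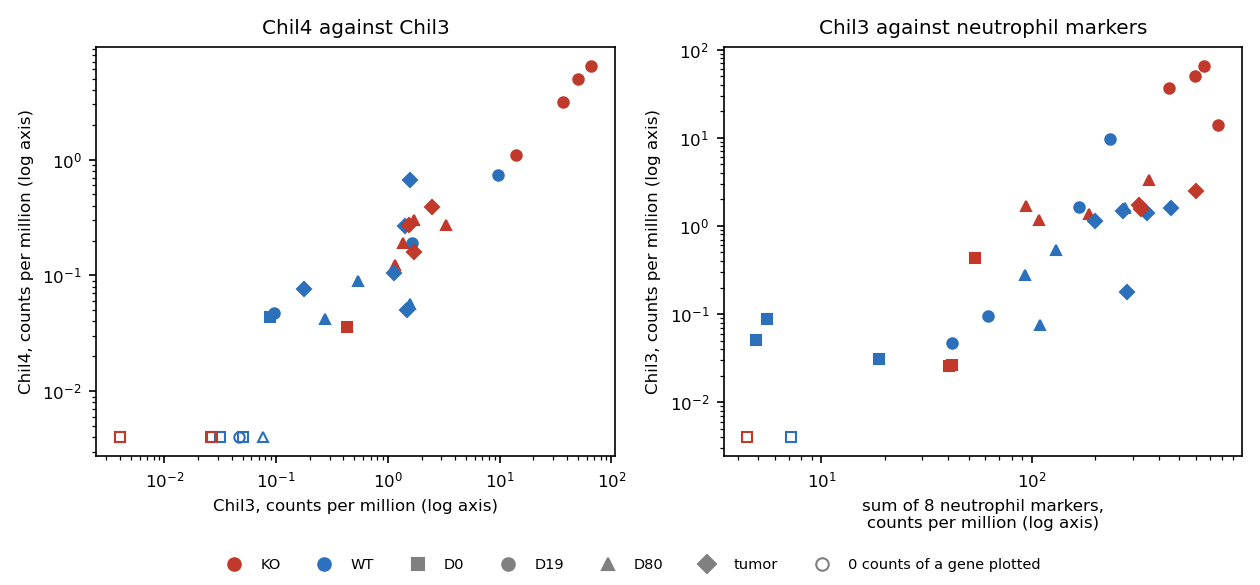
Left, *Chil4* against *Chil3*; right, *Chil3* against the summed level of 8 neutrophil markers, both in CPM on log axes, 1 point per library (red KO, blue WT; the shape gives the stage, open points have 0 counts of a gene plotted). The 4 KO D19 colons stand together at the upper right of both panels, with 13.9 to 65.9 CPM of *Chil3* and 449 to 768 CPM of neutrophil markers, and the WT D19 colons lie between 41.6 and 234 CPM on the marker axis. Tumors lie between 198 and 599 CPM on that axis, with 0.177 to 2.46 CPM of *Chil3*.

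None of the eosinophil genes that could be tested was called between genotypes at any stage. Over all genes tested, 0% were called at D0, D19 and D80, and 0.306% in tumors. *Siglecf* had 2.10, 2.57, 1.97 and 2.48 CPM in KO colons at D0, against 3.06, 2.12, 3.0 and 2.78 CPM in WT colons, and 1.08 to 1.44 CPM in KO and 0.988 to 2.28 CPM in WT colons at D19. *Prg2* had 0.117 to 0.319 CPM in KO and 0.0448 to 0.281 CPM in WT colons at D0, and 2.31, 3.11, 1.87 and 2.42 CPM in KO and 1.75, 2.48, 2.36 and 1.80 CPM in WT colons at D80. The 2 genes therefore did not share a course: between D0 and D80 the *Prg2* groups separated fully and the *Siglecf* groups overlapped. In unsorted tissue the reads of *Siglecf* cannot be assigned to a cell type. Tuft cell markers summed to 33.7 to 54.6 CPM in KO and 37.7 to 59.7 CPM in WT colons at D0. They summed to 37.3 to 47.0 CPM in KO and 34.4 to 45.0 CPM in WT colons at D80, and their part in the *Siglecf* values was not tested. Other granule genes were all but missing, with eosinophil peroxidase (*Epx*) at no more than 0.125 CPM in any library and at 0 in all 4 WT D80 colons, *Prg3* at no more than 0.184 CPM and *Ear14* at 0 throughout. Eosinophil genes that were read in these tissues included *Siglecf*, *Prg2*, *Ear2* and the receptor genes *Il5ra* and *Ccr3*. *Ccr3* had 1.05 to 2.90 CPM in KO and 0.885 to 1.54 CPM in WT colons at D19. *Il5ra* differed by 1.44 on the log2 scale between KO and WT at D19 (SE 0.56, adjusted p = 0.427). The summed level of 9 eosinophil markers, *Siglecf* and *Prg2* among them, was 6.31 to 8.34 CPM in KO and 4.15 to 7.68 CPM in WT colons at D19, and 7.12 to 11.2 CPM in KO and 6.70 to 22.1 CPM in WT colons at D80. The 22.1 CPM belong to mouse 581, and the other 3 WT D80 colons had 6.70 to 9.20 CPM. *Ear2*, a ribonuclease gene of the list, had 0.631 to 1.80 CPM in KO and 1.19 to 13.1 CPM in WT colons at D80, a log2 difference of -1.98 (SE 0.90, adjusted p = 0.681). The 13.1 CPM exceed the whole marker sum of the other 3 WT colons and so belong to mouse 581. The *Ear2* difference was not recomputed without that mouse.

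The first question of the design was whether the absence of DNASE1L3 changed these genes at a given stage. Counts were compared with edgeR's quasi-likelihood test, adjusted over all genes tested, and a gene was called at an adjusted p under 0.05 with a change over 2-fold. In untreated colon none of the 3 members that passed the filter was called, beside 0% of 18175 genes (1750 genes at an unadjusted p under 0.05, none of them these 3, and 40 genes called by DESeq2). *Retnla* differed by 0.06 on the log2 scale between KO and WT (SE 0.62, adjusted p = 0.985), *Ccl11* by -0.37 (SE 0.31) and *Siglecf* by -0.26 (SE 0.20).

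After 1 cycle, 7 members were tested and none was called, beside 0% of 19545 genes (2213 genes at an unadjusted p under 0.05, 4 members among them; 322 genes called by DESeq2). *Chil4* had the smallest p of the members, with a log2 difference of 3.96 between KO and WT (SE 0.91, adjusted p = 0.309), and *Chil3* differed by 3.92 (SE 1.25, adjusted p = 0.361). *Ccl11* differed by 1.26 (SE 0.31, adjusted p = 0.317) and *Retnla* by -2.60 (SE 0.98, adjusted p = 0.421). DESeq2 called 2 members, *Chil4* and *Ccl11*, and edgeR called *Chil3* and *Chil4* when all 32 libraries shared 1 fit, so the calls at D19 turned on the method. In summed counts, *Chil3* had 6652 reads in KO and 455 in WT colons, 12.4-fold higher in KO for its library sizes (95% exact interval of counting, 11.3 to 13.7), and *Chil4* had 619 and 39, 13.5-fold higher in KO (9.74 to 19.1). WT mouse 805 held 381 of the 455 *Chil3* and 29 of the 39 *Chil4* counts of its group, and without it the ratios were 55.5 (44.1 to 70.7) for *Chil3* and 38.2 (20.6 to 80.03) for *Chil4*.

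Among the mice numbered 115 and 116, with 4 KO and 2 WT mice, the log2 differences were 2.92 for *Chil3* (SE 0.91), 3.11 for *Chil4* (SE 0.90), 0.93 for *Ccl11* (SE 0.39) and -1.07 for *Retnla* (SE 1.05), each smaller than over all 8 mice and none called. Without KO mouse 811, *Retnla* differed by -3.81 (SE 0.97, adjusted p = 0.195), and without WT mouse 805, *Chil3* differed by 6.08 (SE 1.17, adjusted p = 0.135) and *Chil4* by 5.41 (SE 0.92, adjusted p = 0.121). Markers of other cells differed between the same groups. The sum of 8 neutrophil markers was 449 to 768 CPM in KO and 41.6 to 234 CPM in WT colons, and within WT it was 41.6 and 61.5 CPM in the 2 mice with almost no *Chil3* and 234 and 168 CPM in the 2 mice with more. The sum of 9 monocyte and macrophage markers was 787 to 1294 CPM in KO and 638 to 689 CPM in WT colons. In tumors the neutrophil sum was 322 to 599 CPM in KO and 198 to 455 CPM in WT mice. *Chil3* there had only 1.55 to 2.46 CPM in KO and 0.177 to 1.59 CPM in WT mice. The part of neutrophils, monocytes and macrophages in the *Chil3*, *Chil4* and *Ccl11* differences at D19 was not tested.

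**Figure D3:**
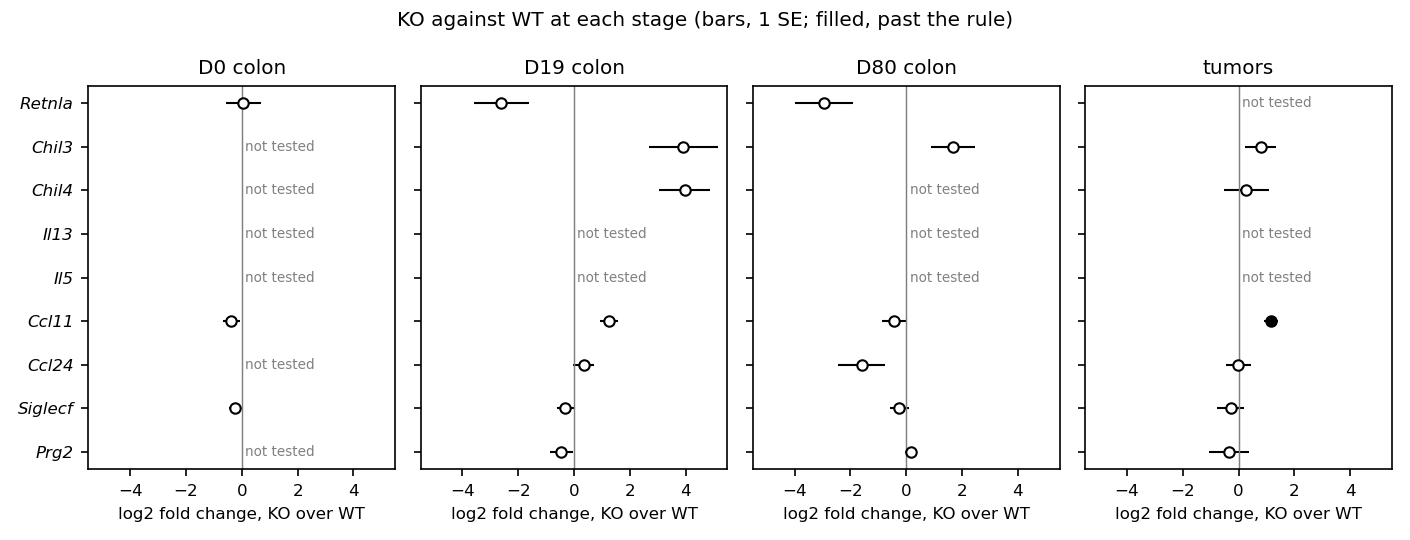
Log2 fold change of each gene, KO over WT, at D0, D19, D80 and in tumors, with bars of 1 SE; a filled point passed the calling rule of its panel, and genes under the count filter are marked as not tested. *Chil3* and *Chil4* lie near 4 at D19 with wide bars, *Retnla* lies below 0 at D19 and D80, and *Ccl11* in tumors (1.17) is the only filled point.

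Other genes of the pathway gave no call between genotypes at D19. Of the 13 receptors and transcription factors tested, 10 had a positive and 3 a negative difference, with a median of 0.83 on the log2 scale against 0.01 over all genes; the decoy IL-13 receptor *Il13ra2* differed by 1.92 (SE 0.51) and the IL-33 receptor *Il1rl1* by 1.69 (SE 0.46). The 15 genes induced by IL-4 and IL-13 had a median of -0.02. Among them the mucus-associated *Clca1* differed by -1.84 (SE 0.43), lower in all 4 KO than in all 4 WT colons, the chemokine *Ccl8* by 1.78 (SE 0.48) and the signaling brake *Socs1* by 1.91 (SE 0.55). Of the 4 tested cytokines and alarmins, 2 had a positive and 2 a negative difference. *Il33* differed by 1.31 (SE 0.47), *Areg* by 0.57 (SE 0.23), *Il4* by -0.81 (SE 0.34) and the alarmin *Tslp* by -0.07 (SE 0.41). Paralogs of the members lay mostly to the positive side, 12 of 13, with a median of 1.37: *Ccl7*, a monocyte chemokine, differed by 2.31 (SE 0.49), *Chil1* by 2.44 (SE 0.56) and *Retnlg*, a neutrophil-associated relative of *Retnla*, by 2.76 (SE 0.64). Of the relatives of *Retnla*, *Retnlb* also had a positive difference (1.26, SE 0.53), and *Retn*, which encodes resistin, had a negative one (-1.0, SE 0.91).

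After 3 cycles, 6 members were tested and none was called, beside 0% of 18899 genes (1049 genes at an unadjusted p under 0.05, 1 member among them; 43 genes called by DESeq2, no member). *Retnla* differed by -2.96 between KO and WT (SE 1.04, adjusted p = 0.681) and *Ccl24* by -1.59 (SE 0.84), and both moved with WT mouse 581, since without it they differed by -0.96 (SE 0.49, adjusted p = 0.510) and -0.29. *Chil3* differed by 1.67 (SE 0.78) and, without mouse 581, by 2.69 (SE 0.59, adjusted p = 0.411). *Ccl11* differed by -0.45 (SE 0.44), and by 0.18 without that mouse. *Siglecf* (-0.25, SE 0.33) and *Prg2* (0.17, SE 0.23) lay close to 0. The summed type 2 receptors and transcription factors did not overlap between genotypes (428 to 521 CPM in KO, 316 to 414 CPM in WT). Sums of the other lists of the pathway overlapped. The summed markers of 4 other cell types did not overlap between these groups. Fibroblast markers summed to 1596 to 2091 CPM in KO and 542 to 1501 CPM in WT colons, where mouse 581 had the 542 CPM. The sums were lower in KO for smooth muscle (1758 to 2772 CPM in KO, 2834 to 3647 CPM in WT), epithelium (6884 to 7508 CPM in KO, 8020 to 10073 CPM in WT) and adipocytes (14.0 to 37.6 CPM in KO, 37.7 to 65.1 CPM in WT). The neutrophil sums overlapped (94.1 to 361 CPM in KO, 92.2 to 278 CPM in WT, where mouse 581 had the 278 CPM). Of these markers, *Csf3r* (1.52), *Cxcr2* (1.99), *Mmp8* (2.50) and *Mmp9* (1.38) were higher in every KO than in every WT colon. *S100a8* (2.94), *S100a9* (2.75), *Retnlg* (0.71) and *Ly6g* (-0.75) overlapped, and none was called. The share of all genes that separated fully between these groups is not given here. The part of any of these cells in the member values was not tested.

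In tumors the study's rule was a nominal p under 0.01 with a change over 2-fold. One of 6 tested members met it on the higher side, beside 0.264% of 18961 genes. *Ccl11* was higher in KO tumors by 1.17 on the log2 scale (SE 0.25, adjusted p = 0.699) and ranked second of all genes by its p, with all 3 KO tumors above all 5 WT tumors. It was not past the rule without KO tumor 544, the library with the high mitochondrial share (0.91, SE 0.22, below 2-fold), nor with the title number as a block (1.07, SE 0.42, short of the p threshold). *Chil3* differed by 0.79 (SE 0.54), and the remaining 4 tested members by -0.33 to 0.28 with standard errors of 0.45 to 0.80.

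The second question was how the genes changed over the course of AOM/DSS in either genotype. At D19 against D0, 3 of 7 tested members were called higher in KO mice, beside 8.95% of all genes, and 2 of 4 in WT mice, beside 9.33%. In KO mice *Chil3* rose by 8.55 (SE 0.97, adjusted p = 0.00032), *Chil4* by 8.51 (SE 0.92, adjusted p = 0.000245) and *Ccl11* by 4.13 (SE 0.35, adjusted p = 7.4e-05). The *Chil3* rise stood on 6652 counts at D19 and 14 at D0, a ratio of 385 (counting interval, 229 to 705). KO D0 mouse 853 held 12 of the 14 counts, and without it the ratio was 2157 (597 to 17811) and the rise 10.91 (SE 0.88, adjusted p = 0.000318). The *Chil4* rise stood on 619 counts and 1, a ratio of 502 (89.7 to 19853), whose lower end alone is informative, since the 1 count was also in mouse 853 and the other 3 KO D0 colons were at 0. In WT mice *Ccl11* rose by 2.50 (SE 0.29, adjusted p = 0.000173) and *Prg2* by 1.94 (SE 0.48, adjusted p = 0.00853). *Retnla* stood at -0.61 in KO mice (SE 0.74, adjusted p = 0.742) and at 2.04 in WT mice (SE 0.85, adjusted p = 0.0728). *Siglecf* had an adjusted p under 0.05 in both, at -0.85 in KO (SE 0.24, adjusted p = 0.0419) and -0.83 in WT mice (SE 0.28, adjusted p = 0.0326), but a change below 2-fold. Without KO mouse 811, *Retnla* fell by 1.76 (adjusted p = 0.038) and *Prg2* rose by 1.49 (adjusted p = 0.0298) in KO mice. In WT mice *Retnla* rose by 2.43 without D19 mouse 805 (SE 0.60, adjusted p = 0.0103) and by 2.81 without D0 mouse 927 (SE 0.97, adjusted p = 0.044), and *Siglecf* fell by 1.04 without D19 mouse 685 (SE 0.27, adjusted p = 0.0137).

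Whether the D19 change differed between genotypes was tested as an interaction, in which no member was called, beside 0.0298% of 20149 genes. *Ccl11* had a larger change in KO mice by 1.63 (SE 0.45, adjusted p = 0.243) and *Retnla* differed by -2.66 (SE 1.23, adjusted p = 0.602), or by -3.81 without KO mouse 811 (SE 1.17, adjusted p = 0.16). For *Chil3* the difference of changes was 2.60 with an SE of 3.27, and at this depth it was not informative. WT D0 colons held 4 counts of it in all, and WT D19 colons ran from 1 to 381 counts. KO D0 mouse 853 held 12 of the 14 counts of its group. The part of each in the SE was not tested.

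At D80 against D0, 3 of 5 tested members were called higher in KO mice, beside 13.4% of all genes, and 4 of 5 in WT mice, beside 7.07%. *Prg2* rose by 3.53 in KO (SE 0.33, adjusted p = 2.6e-05) and by 3.49 in WT mice (SE 0.41, adjusted p = 0.00143), and *Ccl11* by 3.15 in KO (SE 0.25, adjusted p = 1e-05) and by 3.17 in WT mice (SE 0.49, adjusted p = 0.00417). Without WT mouse 581 the WT rise of *Ccl11* was 2.57 (SE 0.27, adjusted p = 0.000162); the difference between genotypes in these rises was not tested. *Chil3* rose in KO mice by 4.07 (SE 0.80, adjusted p = 0.00196), or by 6.40 without D0 mouse 853 (SE 0.70, adjusted p = 0.000148), and was under the count filter in WT mice. *Retnla* rose in WT mice by 4.32 (SE 1.12, adjusted p = 0.0358) and stood at 1.40 in KO mice (SE 0.57, adjusted p = 0.0622), and *Ccl24* rose in WT mice by 4.11 (SE 1.01, adjusted p = 0.0289). Without WT mouse 581 the WT rises were 2.37 for *Retnla* (adjusted p = 0.00503) and 2.86 for *Ccl24* (SE 0.54), whereas leaving out any 1 of the 4 WT D0 mice ended the call of both. The values themselves then stood at 3.99 to 5.08 for *Retnla* (adjusted p = 0.0512 to 0.112) and at 3.80 to 4.53 for *Ccl24* (adjusted p = 0.0685 to 0.0859). Of 7 plasma cell markers, a list chosen after the values were seen, 5 were called higher in either genotype, with sums of 1417 to 2700.4 CPM in KO and 1707 to 4013 CPM in WT colons at D80, against 560 to 854 CPM in KO and 530 to 682 CPM in WT colons at D0. The 4013 CPM belong to mouse 581, and the other 3 WT D80 colons had 1707 to 2725 CPM. The part of plasma cells in the *Prg2* rise was not tested.

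Many other genes of the pathway rose with AOM/DSS. Over all genes, 8.95% were called higher in KO and 9.33% in WT mice at D19, and 13.4% in KO and 7.07% in WT mice at D80. Of the receptors and transcription factors, 10 of 13 tested were called higher and 1 lower in KO mice at D19 (median 3.03 on the log2 scale, against 0.03 over all genes), and 7 of 12 higher in WT mice (median 1.91, against 0.0038). Of genes induced by IL-4 and IL-13, 11 of 14 were called higher in KO (median 2.56) and 11 of 14 higher with 1 lower in WT mice (median 2.45) at D19. At D80, 13 of 15 were called higher in KO (median 2.77, against 0.02 over all genes) and 11 of 15 in WT mice (median 2.60, against 0.05). *Il33*, the alarmin, rose by 4.82 in KO (SE 0.36) and 3.71 in WT mice (SE 0.53) at D19, its receptor gene *Il1rl1* by 4.59 in KO mice (SE 0.34), the eotaxin receptor *Ccr3* by 6.26 in KO (SE 0.77) and 5.46 in WT mice (SE 0.53), and *Csf2rb*, the shared chain of the IL-5 receptor, by 4.35 in KO (SE 0.41) and 3.21 in WT mice (SE 0.35). The lipoxygenase *Alox15* rose by 4.57 in KO (SE 0.61) and 5.17 in WT mice (SE 0.47) at D19. Of the granule and lineage genes only 2 could be tested at D19, and 1 of them, *Ear2*, rose in KO (3.11, SE 0.68) and in WT mice (2.39, SE 0.63).

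The third comparison set tumors against the D80 colon. In KO mice 4 of 7 tested members were called lower, beside 16.4% of all genes, and 1 higher, beside 10.3%; in WT mice 4 of 6 were called lower, beside 13.5%, and none higher, beside 8%. *Retnla* was lost from tumors. It had 0 counts in 3 KO tumors and 583 in 4 KO colons at D80, at least 135-fold lower when 3 counts are granted to the group. KO mouse 535 held 359 of the 583 counts, and without it the bound was 75.9-fold. WT mice had 3 counts in 5 tumors and 2308 in 4 colons, a ratio of 0.000961 (counting interval, 0.000198 to 0.00281), and without mouse 581 a ratio of 0.00223 (0.000458 to 0.00653). The fitted tests called it lower in both genotypes (adjusted p = 0.00219 in KO, 0.000536 in WT, and the WT call held without mouse 581), but their fold changes depend on the prior count. The 6 goblet cell markers summed to 1137 to 2828 CPM in KO tumors and 11724 to 28078 CPM in KO colons, and to 1009 to 4518 CPM in WT tumors and 20386 to 40244 CPM in WT colons, and their part in the *Retnla* values was not tested.

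*Ccl11*, *Siglecf* and *Prg2* fell as well. *Ccl11* fell by 1.49 in KO (SE 0.23, adjusted p = 0.00212) and fell by 3.11 in WT mice (SE 0.41, adjusted p = 0.000641), or fell by 2.51 without WT D80 mouse 581 (SE 0.21, adjusted p = 0.000116). *Siglecf* had 0.245, 0.187 and 0.321 CPM in KO tumors, against 1.62, 3.11, 1.30 and 1.17 CPM in KO D80 colons, a fall of 2.87 (SE 0.47, adjusted p = 0.00252). In WT mice it had 0.533, 0.150, 0.278, 0.209 and 0.404 CPM in tumors, against 1.92, 1.93, 2.24 and 2.28 CPM in D80 colons, a fall of 2.84 (SE 0.34, adjusted p = 0.000457). Tumors and colons did not overlap in either genotype. *Prg2* fell by 2.57 in KO (SE 0.59, adjusted p = 0.00984) and fell by 2.11 in WT mice (SE 0.44, adjusted p = 0.0058), with 0.0714 to 0.906 CPM in KO and 0.105 to 0.808 CPM in WT tumors; without KO tumor 543, the highest, it fell by 3.84 in KO mice (SE 0.48, adjusted p = 0.0023). *Ccr3* also fell by 6.30 in KO (SE 0.84) and fell by 5.86 in WT mice (SE 0.94). All 6 smooth muscle markers were called lower in tumors of both genotypes, with sums of 129 to 207 CPM in KO tumors and 1758 to 2772 CPM in KO colons, and of 137 to 605 CPM in WT tumors and 2834 to 3647 CPM in WT colons, and the part of muscle in the *Ccl11* values was not tested.

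*Ccl24* was the 1 member called higher in KO tumors. It rose there by 3.61 over the D80 colon (SE 0.47, adjusted p = 0.00103), with every tumor above every colon. In WT mice the value was 2.02 (SE 0.74, adjusted p = 0.0641), and it was called without mouse 581 (3.31, SE 0.54, adjusted p = 0.00125). In the 3 WT mice with both samples, which leave out mouse 581, *Ccl24* was called without a block (3.43, SE 0.61, adjusted p = 0.00517) and with a block by mouse (3.29, SE 0.47, adjusted p = 0.00637). In the same mice *Chil3* stood at 1.78 without the block (SE 0.89, adjusted p = 0.132) and was called with it (1.75, SE 0.35, adjusted p = 0.0144). *Chil3* and *Chil4* were higher in the tumor in all 3 WT pairs, by 2.24, 1.51 and 0.98 for *Chil3* and by 2.07, 2.56 and 1.87 for *Chil4*, which was under the count filter. The 5 calls in KO mice were made in the paired mice with and without the block. Within a mouse, *Ccl11* stood at -1.53, -1.55 and -1.02 between tumor and colon on the log2 scale in the 3 KO pairs, and at -2.49, -2.37 and -2.42 in the 3 WT pairs. The genotypes did not overlap here, and this difference was not tested. *Chil3* and *Chil4* stood at 0.01 (SE 0.40) and 0.24 (SE 0.47) between KO tumors and KO colons.

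**Figure D4:**
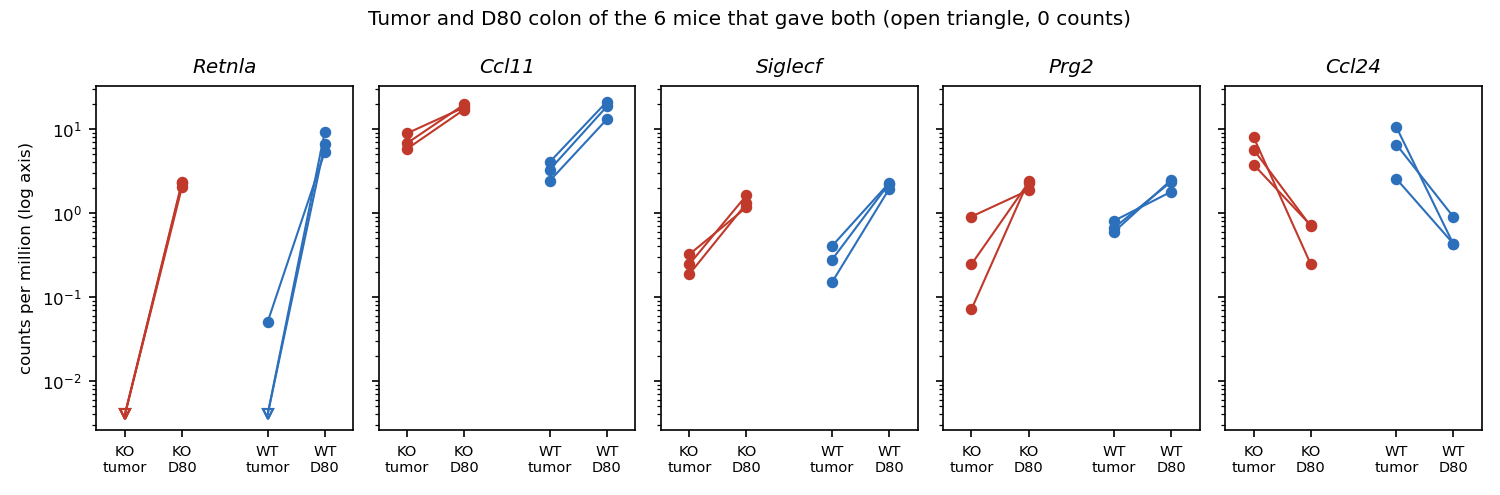
Level of 5 genes, in CPM on a log axis, in the tumor (left of each pair) and the D80 colon (right) of the 3 KO (red) and 3 WT (blue) mice that gave both; lines join samples of 1 mouse and open triangles mark 0 counts. *Retnla*, *Ccl11*, *Siglecf* and *Prg2* are lower in the tumor in all 6 mice, and *Ccl24* is higher in the tumor in all 6.

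Other genes of the lists divided in the same comparison, in which 16.4% of all genes were called lower and 10.3% higher in KO, and 13.5% lower and 8% higher in WT mice. Of the 15 genes induced by IL-4 and IL-13, 9 were called lower and 1 higher in KO tumors (median -1.55, against 0.01 over all genes), and 7 lower and 3 higher in WT tumors (median -1.38, against -0.06). *Clca1* fell by 4.53 in KO (SE 0.74) and fell by 5.12 in WT mice (SE 0.63), and *Retnlb*, the goblet cell relative of *Retnla*, fell by 4.27 in KO (SE 0.73) and fell by 8.01 in WT mice (SE 1.18). *Ear2* fell by 1.28 in KO (SE 0.41) and fell by 3.43 in WT mice (SE 1.02). Mouse 581 was the highest WT D80 colon for *Ear2*, and the WT fall was not recomputed without it. Against this direction *Il1rl1* rose by 1.97 in KO (SE 0.35) and 2.77 in WT mice (SE 0.39), and *Il33* rose by 1.42 in WT tumors (SE 0.37, adjusted p = 0.0157).

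Genes whose levels went most closely with the members, after the group means were removed, were ranked by Pearson's r of log2 CPM over the 32 libraries and 14492 genes, as a description. They were *Ang4* for *Retnla* (r = 0.86, rho = 0.74), *Timp1* (0.81, 0.73) and *Mmp3* (0.79, 0.77) for *Chil3*, *Fkbp14* (0.82, 0.78) for *Ccl11*, *Bik* (0.76, 0.71) for *Ccl24*, *Grpr* (0.75, 0.65) and the lipoxygenase *Alox5* (0.70, 0.68) for *Siglecf*, and *Irf4*, a plasma cell and lymphocyte factor, for *Prg2* (0.83, 0.81). Among pairs of members the highest value was that of *Chil3* and *Ccl11* (r = 0.62, rho = 0.65). All points share the same libraries, and a library that stands apart enters every one of these values.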

How the data were processed

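RNA from whole colon or tumor, 1 library per mouse and tissue, was prepared with TruSeq and sequenced as single 75-base reads. The authors checked reads with FastQC (0.11.5), aligned them to mm10 with STAR and assigned them to GENCODE genes with Subread, and deposited raw counts per gene for all 32 libraries, with no normalization; the strand setting is not given in the sources used here.

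Groups came from the sample labels. Counts were analyzed in R (4.3.3) with edgeR (4.0.16), TMM factors, filterByExpr and the quasi-likelihood test, with the libraries of the groups compared in a fit and Benjamini-Hochberg adjustment over all genes tested. A gene was called at an adjusted p under 0.05 and a change over 2-fold or, between tumors, at a nominal p under 0.01 and over 2-fold, after the study's thresholds. CPM are scaled by TMM over all libraries, SE is the log2 fold change divided by the root of F, and p-values measure the spread between mice. Count intervals and floors (3 counts) cover counting error only. Where groups are said not to overlap, this describes the values alone, and the share of all genes that separate so is not given. The 6 mice with both a D80 colon and a tumor pair these samples by animal, and their deviations from group means correlated at 0.0474 to 0.222. Alternatives were DESeq2 (1.42.0), the newer quasi-likelihood method, RLE size factors, other count filters, a joint fit, blocks for mouse and for the number that precedes the mouse in titles, and leaving out each library; the paired mice without a block were added after seeing the data. Code was tested on simulated counts.

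The members and lists were chosen with earlier results of these data known. Beside the members and *Dnase1l3*, up to 3 genes of a list were named for a comparison, those with the smallest p, plus the genes most correlated with a member; marker genes named as present or at 0, the relatives of *Retnla* and others repeated across comparisons, were chosen after their values were seen. Gene positions are from GENCODE M21 and sequences from RefSeq, both GRCm38.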

Additional observations from a re-analysis of the deposited data

Results flagged for a closer look

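In groups of 4 or 5 mice, 61 sets of values were searched for a lowest or highest library far from the rest. Dixon's criterion was used on log CPM, which picks about 1 in 20 sets by chance, and 7 were found. WT D80 mouse 581 was not among the 7 on this scale. KO mouse 535 had 7.70 CPM of *Retnla* at D80, against 2.06 to 2.36 CPM in the other KO mice. The tumor of WT mouse 555 had 0.177 CPM of *Chil3*, against 1.13 to 1.59 CPM in the other WT tumors. WT mouse 918 had 1.46 CPM of *Ccl11* at D0, against 3.18 to 3.41 CPM in the other WT mice. The remaining 4 stand on 1 or 2 counts in 1 library and 0 in the others: *Chil4* in KO mouse 853 (0.0362 CPM) and WT mouse 851 (0.0437 CPM) at D0, and *Il5* in KO mouse 852 at D0 (0.0532 CPM) and in the tumor of WT mouse 534 (0.0507 CPM).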

How the results depend on the processing

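Of 949 values of members recomputed under alternatives, 885 kept their direction and their side of the threshold, and RLE size factors changed no call. At D19 between genotypes, 2 members were called by DESeq2 and 2 when all libraries shared a fit, against 0. Requiring at least 10 counts in each library left 1 call in D19 and D80 against D0 and in tumor against D80, in each genotype, as fewer members could then be tested. Without a filter the calls were 6 at D19 in WT and 5 at D80 in KO mice, and the joint fit gave 5 at D19 in WT mice. With the title number as a block, 0 members were called between tumors. DESeq2 gave no p for *Retnla* where the WT D80 colons took part. The replicate block by mouse called 6 members in WT and 5 in KO tumors against the D80 colon, against 4 and 5 over all mice. In the same paired mice without the block, an alternative chosen after seeing the data, the calls were 5 and 5, so the block itself added *Chil3* in WT mice and changed no other call.

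Leaving out 1 library at a time, calls ranged over 0 to 1 between tumors (0 without KO tumor 544), 2 to 4 at D19 in WT (4 without mouse 685), 3 to 5 at D19 in KO (5 without mouse 811) and 2 to 4 at D80 in WT mice (2 without any 1 D0 mouse). Signs that turned belong to values near 0 with no call. The log2 difference ranged over -0.26 to 0.81 for *Retnla* at D0, -0.68 to 0.18 for *Ccl11* at D80, -0.39 to 0.29 for *Ccl24*, -0.11 to 1.19 for *Chil4* and -1.61 to 0.11 for *Prg2* between KO and WT tumors, -0.25 to 0.41 for *Chil3* and -0.11 to 0.56 for *Chil4* between KO tumors and colons, and -0.21 to 0.19 for *Siglecf* in the interaction. Under the newer method *Retnla* at D0 was -0.018. *Siglecf* at D19 was 0.25 with the title number as a block and 0.22 among mice 115 and 116, *Prg2* at D80 was -0.17 with that block, and *Chil4* and *Siglecf* between tumors were -0.73 and 0.27. *Chil3* between KO tumors and colons was -0.0054 without a filter, -0.042 with the strict one and -0.028 in the paired mice without a block, and *Siglecf* in the interaction was 0.015 by DESeq2. The causes were not tested. Depth limits *Il13*, *Il5* and, outside KO D19 colons, *Chil4*.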
